A study of Mus musculus with 2 samples.

Results

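Wide footprints are stretches of 25 bp or more inside accessible chromatin that were called as protected from DNase I in mouse frontal cortex. They were chosen by width alone, as all intervals of the deposited footprint lists on chromosomes 1 to 19 whose end minus start was 25 bp or more. Replicate 1 held 7100 of them among 110333 footprints (6.44%, 95% Wilson interval 6.29 to 6.58%), and replicate 2 held 15557 among 245445 (6.34%, 6.24 to 6.44%). The mean share was 6.39 ± 0.0684% (SD, n = 2). They were set against the narrow footprints of 7 to 10 bp, which numbered 69822 in replicate 1 and 156168 in replicate 2.

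The data are DNase-seq libraries of frontal cortex tissue from female mice of strain B6CASTF1/J, a cross of a B6 and a CAST parent, aged 36 days, and the labels name no treatment. The labels give 1 group with 2 biological replicates and no other condition. Both replicates carry the same donor label, and the labels do not say that they came from separate animals, so the spread between them may be technical. Library totals were not analysed here, and the intervals below cover counting error only.

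DNase I cuts DNA that is free of nucleosomes, and a protein bound within such a region shields the bases under it, which leaves a footprint of few cuts. Many sequence-specific factors cover a short site, whereas CTCF, a zinc finger protein that organises chromatin loops and insulates domains, grips a long element with an array of fingers. Genes for tRNA are another class with broad protein contacts, because TFIIIC binds promoter elements, the A box and the B box, that lie within the transcribed gene.

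The sequences below are examples of members that hold the motifs described in the results, chosen by motif and peak height and not as a typical sample. All are footprint intervals of replicate 1 on GRCm38 (mm10), printed 5′ to 3′ on the strand given, with the motif in capitals and everything else in lower case. Each is wide in both replicates, and the widths in replicates 1 and 2 are given in that order. A negative distance from a transcription start site (TSS) is upstream. The first set holds the CTCF core: the member under the highest peak, then a pair of the shorter kind and a pair of the longer kind. In the longer pair a second run of capitals marks an element upstream of the core.
CTCF core, 42 and 43 bp, -187 bp from the TSS of the pseudogene Gm21769, chr8:20122176-20122217, plus strand: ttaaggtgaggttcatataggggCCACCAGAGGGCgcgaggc
CTCF core, 29 and 30 bp, 221 bp from the Ints7 TSS, chr1:191575983-191576011, minus strand: ctgccgCCACTAGGTGGCgccactccccc
CTCF core, 29 and 31 bp, intergenic, -12972 bp from the Coro2b TSS, chr9:62550002-62550030, minus strand: atatgtCCACCAGAGGGCgcaccggccac
CTCF core with upstream element, 46 and 48 bp, intergenic, chr6:99804408-99804453, plus strand: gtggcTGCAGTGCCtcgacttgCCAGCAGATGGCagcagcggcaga
CTCF core with upstream element, 43 and 41 bp, intron, 25265 bp from the Vrk1 TSS, chr12:106055961-106056003, minus strand: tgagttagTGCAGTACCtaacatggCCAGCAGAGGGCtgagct

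The second set is labelled by other motifs, at promoters and in a tRNA gene. Most of these motifs are described further below, while the X-box of the ciliary gene regulators of the RFX family is shown only as an example. The letters of the neurogenic E-box printed here lie inside a CTCF core with 1 mismatch. That footprint therefore also counts as a CTCF member where up to 1 mismatch is allowed, and is no example of an E-box without CTCF.
NRF1 site, 36 and 37 bp, -161 bp from the Ints3 TSS, chr3:90433765-90433800, plus strand: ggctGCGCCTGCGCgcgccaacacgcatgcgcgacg
CRE, 25 and 68 bp, -41 bp from the start of the small RNA gene Rn7s2, chr12:69361510-69361534, plus strand: gagcttcggcgggccgTGACGTCAc
RFX X-box, 31 and 37 bp, -57 bp from the Cfap97d1 TSS, chr11:101984207-101984237, plus strand: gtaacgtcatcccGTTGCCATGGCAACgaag
Neurogenic E-box, 48 and 45 bp, -220 bp from the Bicdl1 TSS, chr5:115653182-115653229, plus strand: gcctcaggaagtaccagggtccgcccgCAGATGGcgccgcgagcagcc
B box of the tRNA-Arg gene n-TRtcg5, 44 and 46 bp, -111 bp from the Polg TSS, chr7:79466451-79466494, plus strand: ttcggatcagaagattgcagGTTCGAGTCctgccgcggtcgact

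Most wide footprints were only a little over the limit, and a smaller part measured 41 to 49 bp. The median width was 30 bp in both replicates, and the widest member measured 80 bp in replicate 1 and 77 bp in replicate 2. Widths of 25 to 33 bp made up 67.1% and 71.9% of the members of replicates 1 and 2. Widths of 34 to 40 bp made up 18.01% and 14.5%, those of 41 to 49 bp 13.7% and 12.3%, and 50 bp or more 1.20% and 1.39%. The limit cut through a smooth slope. Replicate 1 had 748 footprints of 24 bp and 761 of 25 bp, and replicate 2 had 1821 and 1639. A CTCF consensus, allowing up to 1 mismatch, stood in 30.6% of the 24-bp and 32.2% of the 25-bp footprints of replicate 1, and in 22.4% and 23.4% in replicate 2.

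**Figure D1:**
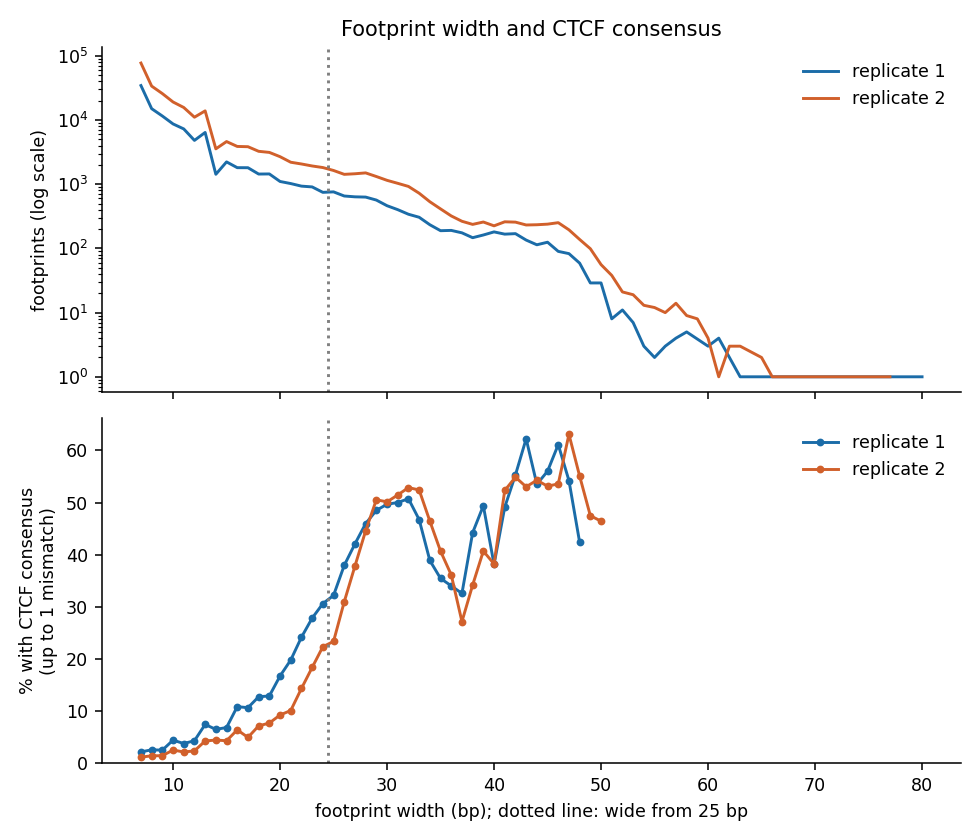
Top, number of footprints (log scale) at each width in bp for replicates 1 and 2; bottom, percent of footprints of each width (widths with at least 50 footprints) whose 35-bp window held the CTCF consensus with up to 1 mismatch. The CTCF share reached 50.7% and 52.9% at 32 bp, was 32.6% and 27.2% at 37 bp and 62.2% and 53.0% at 43 bp; the dotted line marks the limit of 25 bp.

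The first comparison asked how often a footprint of one replicate lay on a footprint of the other. By midpoint, wide footprints were found again far more often than narrow ones. A wide footprint in the other replicate is easier to hit than a narrow one. How much of the gap this makes was not tested. The midpoint of 6854 of the 7100 members of replicate 1 (96.5%, 96.1 to 96.9%) lay in a footprint of replicate 2, against 31.9% of narrow footprints and 45.8% of all footprints. In the other direction the share was 69.8% (69.0 to 70.5%), against 8.73% of narrow footprints and 17.9% of all. The difference between the classes was 64.6 percentage points from replicate 1 to replicate 2 and 61.0 in the other direction, with a mean of 62.8. Both directions compare the same 2 libraries, so they give no spread between replicates. The share itself was lower from replicate 2 to replicate 1, which had the shorter list.

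What stood at the same place in the other replicate also differed between the classes. For members of replicate 1 it was a wide footprint in 80.2%, a footprint of 11 to 24 bp in 15.4% and a narrow one in 0.901%. Another 2.93% had no footprint there although a main peak covered the place, and 0.535% had neither a footprint nor a main peak. For members of replicate 2, a wide footprint stood in replicate 1 at 36.5%, a footprint of 11 to 24 bp at 28.1% and a narrow one at 5.14%. Another 12% lay in a main peak of replicate 1 without a footprint, and 18.2% met neither. Most narrow footprints of replicate 2, 69.7%, met neither a footprint nor a main peak of replicate 1.

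In all, 5709 pairs were wide in both replicates. Their median widths were 31 and 32 bp, and 42.02% differed by up to 2 bp. Start and end were identical in 325 pairs (5.69%). Replicate 2 had the wider interval in 58.7% of pairs and replicate 1 in 30.8%. The size class was kept in part. Of the pairs that measured 25 to 33 bp in replicate 1, 72.1% did so in replicate 2, against 56.0% of all pairs. Of those at 41 to 49 bp 63.7% kept their class, against 22.9% of all pairs, and of those at 34 to 40 bp 30.6% did, against 18.3%. Across pairs the widths correlated with r = 0.53 and rho = 0.48 over the 5709 pairs, which all come from the same pair of libraries and share their peaks.

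**Figure D2:**
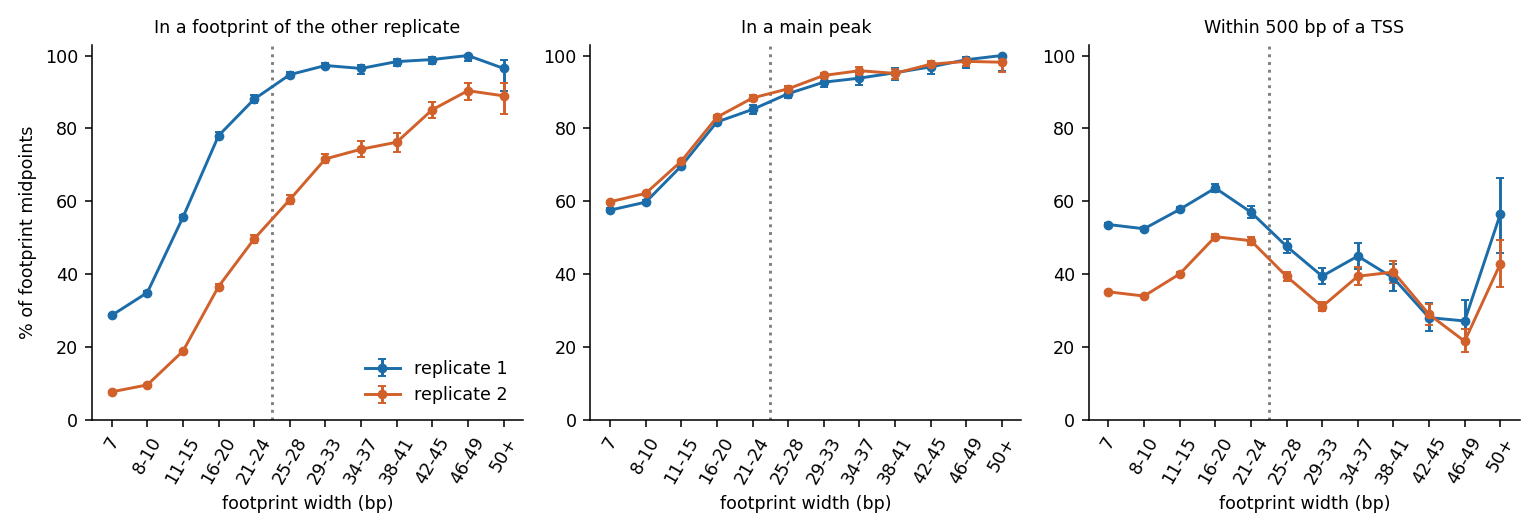
Percent of footprint midpoints (y axis) by width class in bp (x axis) that lay in a footprint of the other replicate, in a main peak, or within 500 bp of a TSS; points are replicates 1 and 2 with 95% Wilson intervals and the dotted line marks 25 bp. Sharing and peak membership rose with width up to the class of 29 to 33 bp, with means of 84.4% and 93.6% there. They were higher still at 46 to 49 bp, with means of 95.2% and 98.6%. The promoter share was highest at 16 to 20 bp (63.7% and 50.3%) and low at 46 to 49 bp (27.2% and 21.6%).

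Next, the peaks that host the members were compared. The deposited files give a shorter and a longer peak list per library, called the main and the longer list here. Wide footprints lay in strong peaks and near their centres. In replicate 1, 92.5% (91.9 to 93.1%) of members lay in a main peak, against 58.7% of narrow footprints and 65.5% of all footprints. In replicate 2 the shares were 93.7%, 61.1% and 67.5%. The difference between the classes was 33.2 ± 0.816 percentage points (SD, n = 2), and against the longer list it was 10.2 points, since 86.4% and 86.0% of narrow footprints lay in that list.

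The authors' peak signal, a density normalized for read depth, had a median of 2.30 over the host peaks of wide footprints in replicate 1 and 1.78 over those of narrow ones. In replicate 2 the medians were 2.60 and 1.54, while the medians over all main peaks were 1.35 and 1.18. The hosts of wide footprints were shorter, with a median of 200 bp against 260 bp in both replicates. Position in the peak separated the classes clearly. The midpoint of a wide footprint lay a median of 15 bp from the peak centre in both replicates, that of a narrow one 56 bp. Within 25 bp of the centre lay 64.1% and 65.4% of members, against 24.9% and 24.4% of narrow footprints.

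About 1 main peak in 5 held a member, 6073 of 28969 (20.96%) in replicate 1 and 13267 of 64912 (20.4%) in replicate 2. A peak with 2 or more was uncommon, with 454 and 1156 peaks, and the most in 1 peak was 4 and 5. Peaks that held both classes, 4018 and 9494 in number, allowed a comparison inside the same peaks. There, wide footprints were shared with the other replicate in 96.3% and 72.9% of cases and narrow ones in 46.6% and 19.9%. The median distance from the centre was 18 and 16 bp for wide footprints and 67 bp for narrow ones in both replicates. The classes thus stayed apart with the host peak held the same. At the midpoint the authors' cleavage FDR had a median −log10 value of 10.6 and 15.1 for wide and 4.71 and 5.23 for narrow footprints. On average 1.46% of narrow and 0.0103% of wide midpoints had no such value. How the footprint calls relate to this FDR is not given, so it may not be independent of them.

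**Figure D3:**
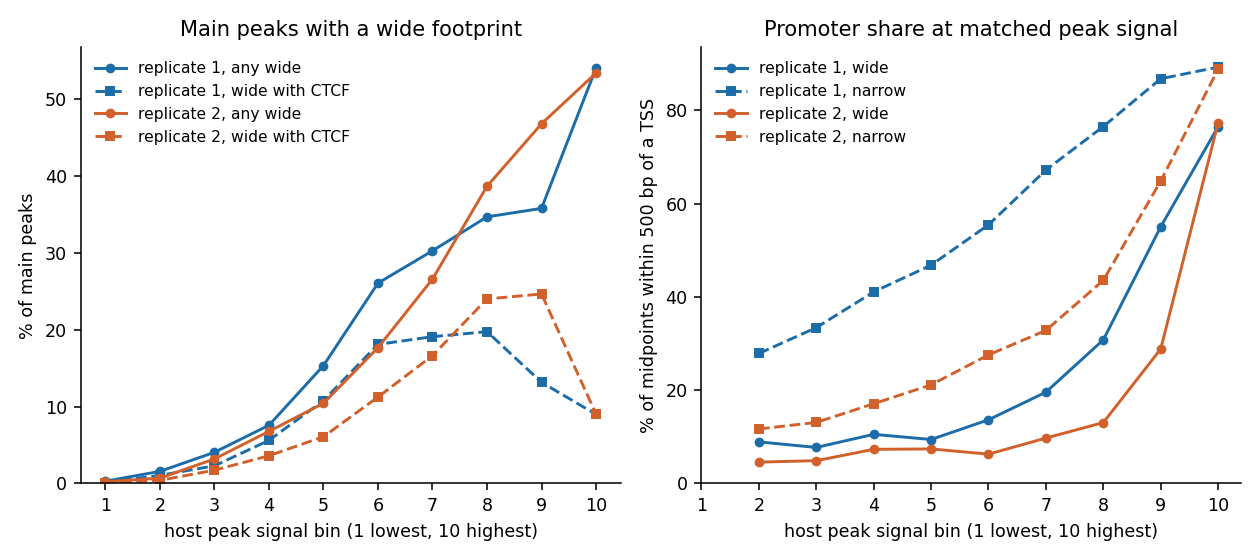
Main peaks in 10 bins of the authors' signal from lowest to highest (x axis). Left, percent of peaks that held any wide footprint or a wide one with the CTCF consensus (up to 1 mismatch); right, percent of wide and narrow midpoints within 500 bp of a TSS. In the highest bin 54.1% and 53.4% of peaks held a wide footprint, but only 8.97% and 9.03% held one with CTCF, and in bins 2 to 10 the promoter share of wide footprints stayed under that of narrow ones. Bin 1 is left out of the right panel, since it held only 8 and 13 wide footprints.

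Motif content was read in a window of 35 bp around each midpoint, the same for every footprint, on both strands, and set beside tiles of 35 bp that cover the main peaks. CTCF stood out. The exact 12-letter core stood in 19.2% (18.3 to 20.2%) of wide footprints of replicate 1 and 18.3% (17.7 to 18.9%) of replicate 2. Narrow footprints held it in 0.848% and 0.321%, tiles in 0.928% and 0.750%, and all footprints in 2.82% and 1.91%. The difference was 18.2 ± 0.305 percentage points (SD, n = 2). With up to 1 mismatch the core stood in 43.8% and 42.7% of wide, 2.61% and 1.45% of narrow footprints, and 2.53% and 2.16% of tiles. Inside peaks that held both classes it stood in 37.4% and 40.7% of wide and 0.920% and 0.555% of narrow footprints.

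Seen from the motif, most exact CTCF cores in main peaks carried a footprint, and most of these were wide. The centre of the core lay in a footprint for 86.8% of 2403 cores in replicate 1 and 91.1% of 4105 in replicate 2, and in a wide one for 53.2% and 66.3%. The median width of these footprints was 27 and 28 bp. Other motifs had narrower footprints. NRF1, an activator of genes for mitochondrial and housekeeping proteins, had a footprint at 74.5% and 83.7% of its sites, with a median width of 17 and 19 bp, and a wide one at 11.5% and 15.4%. The CRE (TGACGTCA), the site of CREB and ATF proteins, had a footprint at 63.0% and 73.9%, with a median of 19 and 22 bp. E-boxes of the form CAGCTG had a footprint at only 18.5% and 19.7%, with a median of 10 bp in both replicates.

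Promoter motifs were also more frequent in wide than in narrow footprints. NRF1 stood in 2.82% and 1.95% of wide footprints, 0.626% and 0.241% of narrow ones and 0.789% and 0.400% of tiles. CRE stood in 1.49% and 1.18% of wide, 0.272% and 0.129% of narrow footprints, and 0.278% and 0.165% of tiles. The SP/KLF box (GGGCGGG), bound by general GC-box activators, stood in 7.21% and 5.89% of wide and 4.80% and 3.06% of narrow footprints, with 4.74% and 3.06% of tiles. The EGR site (GCGNGGGCG), which can share letters with the SP/KLF box, stood in 1.59% and 1.27% against 0.952% and 0.571%, with 0.859% and 0.585% of tiles. Among footprints with a partner in the other replicate the mean difference was only 0.080 points for SP/KLF and 0.066 points for EGR, against 1.45 for NRF1 and 1.08 for CRE. Against footprints of 11 to 24 bp the order turned for NRF1, SP/KLF and EGR, which were more frequent in that middle class.

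Some motifs were less frequent in wide footprints. AP-1 (TGANTCA), the site of FOS and JUN dimers, stood in 0.352% and 0.636% of wide, 1.05% and 1.89% of narrow footprints, and 0.755% and 1.48% of tiles. The CAGCTG E-box stood in 1.41% and 1.74% of wide, 2.76% and 3.33% of narrow footprints, and 2.27% and 2.83% of tiles. The neurogenic E-box CAGATGG, recognised by NEUROD and related factors, stood in 3.10% and 3.45% of wide and 1.30% and 1.73% of narrow footprints, with 0.929% and 1.30% of tiles. Its letters also occur in forms of the CTCF core, and 75.5% and 61.2% of those wide windows held a CTCF core as well. Without windows that held CTCF the shares were 1.35% against 1.16% and 2.33% against 1.63%. No motif of the 29 searched stood in 34.5% and 35.4% of wide, 75.04% and 76.8% of narrow footprints, and 76.9% and 78.3% of tiles.

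**Figure D4:**
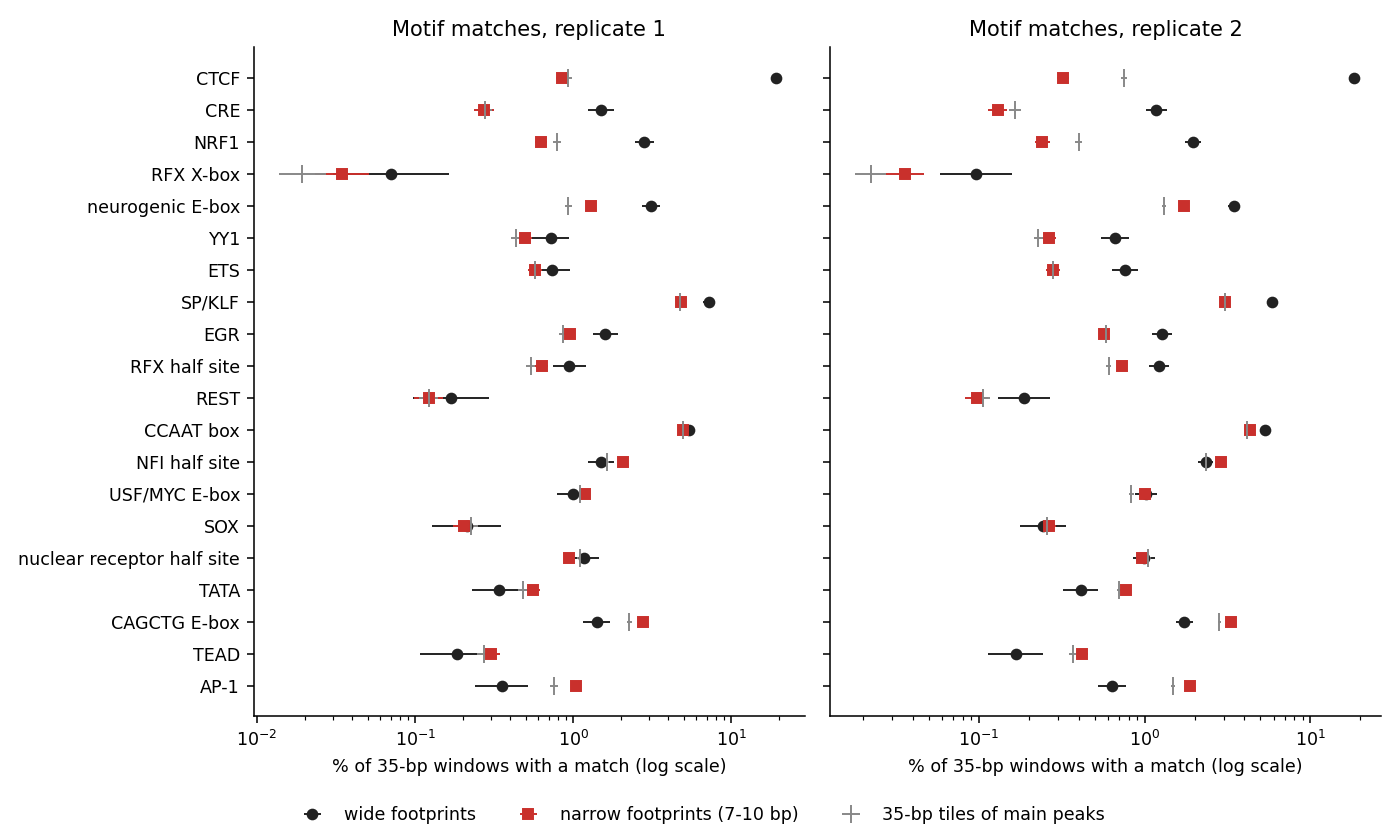
Percent of 35-bp windows (log scale) with a match to each motif for wide footprints, narrow footprints and 35-bp tiles of main peaks, with 95% Wilson intervals, in replicates 1 and 2. CTCF separates the classes most (19.2% and 18.3% of wide windows), and AP-1 and the CAGCTG E-box lie lower in wide than in narrow footprints in both replicates.

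Wide footprints over CTCF came in a shorter and a longer form that differed on the upstream side of the core. Positions here are counted along the strand of the core, which was allowed up to 1 mismatch. At widths of 25 to 33 bp (2100 and 4734 footprints) the protected stretch began a median of 5 bp upstream of the core in both replicates and ended 11 and 12 bp downstream of it. At 41 to 49 bp (533 and 1043 footprints) it began 22 bp upstream in both replicates and ended 10 and 11 bp downstream. The downstream edge was thus nearly the same in both forms, and the added protection lay upstream. At 34 to 40 bp the upstream medians, 17 and 9 bp, lay between those of the shorter and the longer form. The downstream medians, 8 and 14 bp, lay below both forms in replicate 1 and above both in replicate 2.

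The bases under the added stretch differed from those at the shorter form. In the longer form, position -16 from the core was G in 76.2% and 77.1% of footprints, position -12 was T in 77.3% and 79.0%, and position -10 was C in 75.8% and 72.6%. At 25 to 33 bp the same positions held G in 41.95% and 37.8%, T in 44.0% and 44.2%, and C in 42.4% and 40.96%. The letters TGCAGTNCC, chosen after these bases were seen, stood within 25 bp upstream of the core in 7.50% and 8.05% of the longer form and 1.05% and 1.35% of the shorter form. With 6 of its 8 fixed letters in place it stood in 49.5% (45.3 to 53.8%) and 47.0% (44.0 to 50.01%) of the longer form, and in 9.24% and 7.60% of the shorter form. Narrow footprints near a CTCF core had it in 8.74% and 7.61%. The gap between the forms was of like size in both replicates, but the letters were picked on these sites and are a description. Both sequences printed as CTCF core with upstream element belong to the longer form. The footprint printed for the neurogenic E-box, 48 and 45 bp wide, also has the widths of that form. Upstream of its CTCF core with 1 mismatch it holds 6 of the 8 fixed letters.

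**Figure D5:**
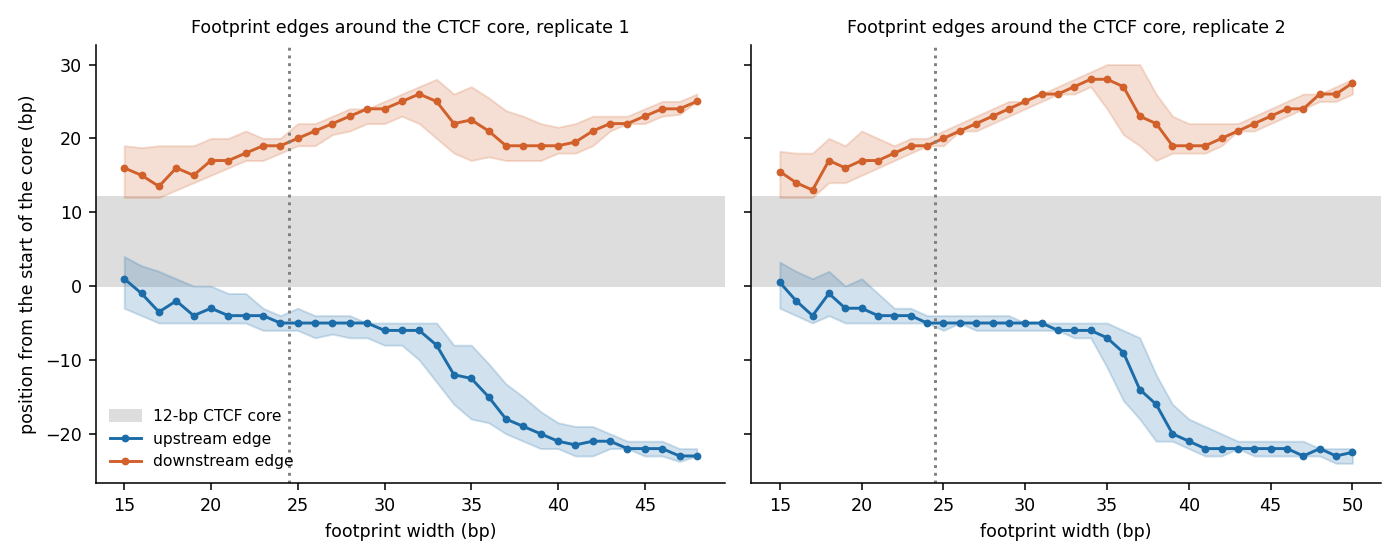
Median position of the upstream and downstream footprint edge in bp from the start of the 12-bp CTCF core (y axis) against footprint width in bp (x axis), with quartiles shaded, for footprints over a core with up to 1 mismatch in replicates 1 and 2. From 25 to 32 bp the upstream edge stayed near 5 bp from the core while the downstream edge moved out, and from 41 bp the upstream edge lay near 22 bp.

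Promoter share did not separate wide from narrow footprints in the same way in both replicates. Within 500 bp of a TSS lay 42.03% (40.9 to 43.2%) of wide and 53.1% of narrow footprints of replicate 1, where 54.2% of all footprints did. In replicate 2 the shares were 35.4% (34.6 to 36.1%), 34.6% and 37.3%. The difference was -11.0 points in replicate 1 and 0.773 points in replicate 2, with a mean of -5.13 ± 8.35 (SD, n = 2), so it did not exceed the spread between replicates. Within bins of equal host signal wide footprints were less often at promoters in both replicates, with a mean difference of -27.1 points. In the highest of 10 bins the promoter share was 76.5% and 77.4% for wide and 89.3% and 88.8% for narrow footprints, and in the sixth it was 13.6% and 6.26% against 55.4% and 27.5%.

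The promoter share concealed a split among the members. Those with the CTCF core (up to 1 mismatch) lay at a promoter in 12.9% and 10.4% of cases, and those without it in 64.7% and 54.0%. The median distance to the nearest TSS was 6468 and 6947 bp with CTCF and 128 and 262 bp without. CTCF members lay in introns away from promoters in 37.4% and 39.5% and in intergenic sequence in 43.5% and 44.1%. Their host peaks had a lower median signal, 1.80 and 2.02, than those of the other members, 2.93 and 3.65. When footprints with CTCF were left out of both classes, wide ones were more often at promoters than narrow ones, by 14.9 points on average.

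Among the members without CTCF, the promoter motifs stood mostly at promoters. SP/KLF stood in 17.4% and 16.2% of such members at promoters and 2.63% and 2.49% away from them, and NRF1 in 7.24% and 5.67% against 0.782% and 0.634%. CRE stood in 3.91% and 3.43% against 0.355% and 0.439%. The neurogenic E-box went the other way, with 0.503% and 0.436% at promoters and 2.91% and 4.56% away. GC content of the window, which was 63.7% and 62.0% on average in wide and 60.5% and 56.8% in narrow footprints, differed by 4.17 points, and by 0.552 points within bins of equal host signal.

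Many of the widest members overlapped tRNA genes. Of 386 tRNA genes in the RefSeq annotation of chromosomes 1 to 19, 90 (23.3%) had a wide footprint in replicate 1, 161 (41.7%) in replicate 2 and 85 in both. Footprints of 50 bp or more numbered 85 and 217, of which 16 (18.8%) and 60 (27.6%) overlapped a tRNA gene. Among all wide footprints the share was 1.39% in both replicates, and among narrow ones 0.216% and 0.0826%. The position on the gene differed by width. All 16 and 60 footprints of 50 bp or more had their midpoint upstream of the 5′ end of the gene, at a median of -20 and -21 bp, so they covered the start and its upstream flank, and none held the B box letters GTTCGANNC. Of the 83 and 157 members of 25 to 49 bp, 75 and 142 had their midpoint inside the gene, the median was 56 bp from the 5′ end in both replicates, and 62 and 118 held the B box letters. The printed B box sequence is of this second kind. The tRNA-Leu gene n-TLtag1 had the widest pair, 61 and 65 bp, followed by the tRNA-Ser gene n-TScga2 with 61 and 63 bp and the tRNA-Arg gene n-TRtcg5 with 61 and 59 bp, all of the upstream kind. The split by width was looked at after the widths were known. Many tRNA genes have near-identical copies, and the sources used here do not say how reads that fit several copies were placed.

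The single widest members were of several kinds. The footprint of 80 bp in replicate 1 (chr12:99645577-99645656) lay in an intron, with Foxn3 as the nearest protein-coding gene by TSS, and measured 50 bp in replicate 2. At the promoter of Ccdc66 (chr14:27508491-27508562), a gene for a ciliary and centrosomal protein, the widths were 72 and 71 bp. An intronic footprint with Col18a1 as the nearest protein-coding gene (chr10:77130730-77130793) measured 64 and 65 bp, and one at the Leprot promoter (chr4:101647210-101647272) 63 and 66 bp. These last 3 kept their width within 3 bp. The fifth widest of replicate 1 overlapped the tRNA-Trp gene n-TWcca5 (chr11:61407974-61408035), with 62 and 55 bp. The footprint of 77 bp in replicate 2 (chr6:47757987-47758063) was intergenic and measured 46 bp in replicate 1, and the one of 68 bp beside Rn7s2 (chr12:69361470-69361537), a gene for the RNA of the signal recognition particle that has near-identical copies, measured 25 bp in replicate 1. The CCAAT box, the site of NF-Y, stood inside 27.1% and 16.1% of footprints of 50 bp or more and 2.85% and 3.32% of those of 25 to 33 bp, or 5.89 and 3.78 against 1.04 and 1.19 per kb of footprint.

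Genes were counted as carrying a member when a wide midpoint lay within 500 bp of a TSS in both replicates. This held for 2147 of 20807 protein-coding genes (10.3%), and for 19.9% of those whose promoter held a main peak in both. By pairs of overlapping wide footprints, 1661 genes had 1 at the promoter, 222 had 2 and 11 had 3. The 11 are Ankrd16 and Fbh1, which share a promoter region, Gys1 and Ruvbl2, which share another, and Cenpu, Hexim2, Hnrnpul1, Lig4, Ncam1, Pef1 and Zfp143. Ncam1 encodes a neural cell adhesion molecule, and its 3 pairs lay in chr9:49798949-49799144.

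By the count in both replicates, activity-regulated and respiratory chain genes had the largest shares of the lists examined. In replicate 2 alone housekeeping genes had the largest, with 12 of 18, against 10 of 20 and 9 of 19. The widths given here and below are those of the widest footprint of a gene in each replicate, which need not be the same footprint. At Jun, Atp5b, Actb, Rplp0, Rpl18 and Clu the widest footprints of the replicates lay at different places. Of 20 activity-regulated genes, which neurons switch on after stimulation, 6 (30%, 14.5 to 51.9%) had a wide footprint in both replicates. The widest measured 38 and 36 bp at Jun, 34 and 35 bp at Arc, a regulator of synaptic receptor traffic, and 34 and 32 bp at Fos. The other 3 were Dusp1, Egr1 and Atf3. Of 19 respiratory chain genes 7 (36.8%, 19.1 to 59.0%) carried one, among them Ndufa8, a subunit of complex I, with 39 and 40 bp over an NRF1 site, Atp5b with 48 and 27 bp and Cox6c with 34 and 37 bp. Every activity-regulated or respiratory chain gene but 1 held a main peak at the promoter in both replicates, and the intervals of both lists include 19.9%, the share among genes with such a peak.

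Housekeeping and ribosomal protein genes were near that share too. The former had 4 of 18, among them Ppia (28 and 49 bp), Snrpd3 (27 and 45 bp) and Actb (31 and 29 bp). The latter had 4 of 20, among them Rplp0 (36 and 44 bp), Rpl5 (42 and 31 bp) and Rpl18 (32 and 34 bp). Synapse and channel genes had 2 of 19, namely Shank3 (42 and 45 bp) and Dlg4 (26 and 34 bp), which encode scaffolds of the postsynaptic density.

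Members were few at cell type genes, most of which also lacked a promoter peak. None of 18 neuronal targets of the repressor REST carried a wide footprint in both replicates (0 to 17.6%), and replicate 2 alone had 1. That interval includes 10.3%, the share among all protein-coding genes. Of these targets, 16 held a main peak and 16 a narrow footprint in both replicates. A narrow footprint in both stood at 10614 of 20807 protein-coding genes. Excitatory neuron genes had 1 of 20, Tle4 (43 and 35 bp), and astrocyte genes 2 of 20, Gfap (32 and 34 bp, over CTCF) and Clu (29 and 27 bp). Inhibitory neuron (0 of 20), oligodendrocyte (0 of 19), microglia (0 of 19) and vascular genes (0 of 10) had none. Among genes that held a promoter peak in both replicates the shares were 1 of 8 for excitatory and 2 of 10 for astrocyte genes, close to the 19.9% of all such genes. Promoter peaks in both replicates stood at 8 of 20 excitatory, 3 of 20 inhibitory, 4 of 19 oligodendrocyte, 10 of 20 astrocyte, 3 of 19 microglia and 0 of 10 vascular genes. Among all protein-coding genes 10691 of 20807 (51.4%) had one. Each of these lists lay below that share, so the counts are no check of the tissue label. In tissue, fewer cells of a type and less signal per cell cannot be told apart.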

How the data were processed

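DNase-seq was analysed from files deposited per library: a footprint list, a shorter and a longer peak list, and a table of cleavage intervals. All are on mm10, per the labels, and were made per library from filtered alignments, per the deposited text listing; the sources used here do not give the aligner or the callers. Each peak carries the authors' signal, a density scaled for read depth, which was compared only within a library. For cleavage intervals the deposited p-value is an FDR of up to 0.05, and the deposited footprint score is 0.01 in every row, which ranks nothing. Peaks and footprints are placed on the reference genome, so CAST alleles were not seen separately.

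Footprints were placed by midpoint, with TSSs from GENCODE M21 and tRNA genes and sequence from RefSeq and GRCm38. Motifs were matched exactly on both strands in windows of 35 bp; the CTCF core has 12 letters. Where deposited peaks overlapped, the host was the peak of highest signal. With 1 group of 2 replicates no test was made: shares carry 95% Wilson intervals, and differences other than overlap were set against the spread between replicates. The pairing and motif code was tested on simulated data and found 1520 of 1520 planted partners and 2000 of 2000 planted cores among 5000 simulated intervals. Python 3.11.15, numpy 2.4.6, pandas 2.3.3 and matplotlib 3.10.9 were used.

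The members and the lists were chosen with earlier results of these data known. Named were the 5 widest footprints of each replicate and the 5 widest pairs, up to 3 genes per list by summed width, the genes with most pairs at the promoter (11, where the rule takes 10 and ties followed) and, per motif, the pair under the highest peak of replicate 1 outside UTRs and chromosome 18. The CTCF pairs of each form, the B box example, and Dusp1, Egr1, Atf3 and the tRNA genes other than n-TWcca5 and n-TLtag1 were chosen after their values were seen.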

Additional observations from a re-analysis of the deposited data

How the results depend on the processing

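Wide footprints were set at 20 or 30 bp, compared with 11 to 24 bp, limited to footprints with a partner, and recomputed without each replicate; equal host signal, CTCF mismatches and CTCF-free footprints were chosen after seeing the data. Their share was 10.7% at 20 bp or more and 3.42% at 30 bp or more. The overlap difference was 56.7 points at 20 bp, 67.0 at 30 bp, 37.9 against 11 to 24 bp and 55.6 when the partner had to be wide. The promoter difference was 1.28 points at 20 bp, -17.7 with a partner, -27.1 at equal host signal and 14.9 without CTCF, and ranged from -11.0 to 0.773 over single replicates. The host peak difference was 30.6 and 35.4 points at 20 and 30 bp, 18.2 against 11 to 24 bp, 17.01 with a partner and 10.2 with the longer list. The log2 host signal difference of 0.56 was 0.19 against 11 to 24 bp and 0.14 with a partner. The CTCF difference was 16.7 points in 25-bp and 17.8 in 51-bp windows, 5.62 matches per kb of footprint, 13.6 and 19.2 at 20 and 30 bp, 16.1 against 11 to 24 bp, 41.2 with up to 1 mismatch and 18.8 at equal host signal. The GC difference was 0.986 points against 11 to 24 bp, 1.38 with a partner and 0.552 at equal host signal. Genes with a wide footprint made up 12.98% to 21.3% over single replicates, against 10.3% in both.

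Against 11 to 24 bp the difference turned to -0.302 for NRF1, -1.61 for SP/KLF, -0.439 for EGR and -0.127 for the NF-Y form of the CCAAT box, which was -0.337 with a partner; for the short NFI site it turned to 0.173 without CTCF. The causes were not tested. Overlap and CTCF content kept their direction under the alternatives run. No paired analysis was possible because the 2 replicates form 1 group and no test between groups was made. Library depth was not analysed here, so whether it limited which footprints were called was not tested.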
